A study of Arabidopsis thaliana with 10 samples.

Results

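The comparison set leaves of *Arabidopsis thaliana* after 4 h of methyl jasmonate (MeJA) against leaves after 1 h of it, which takes 4 of the 10 arrays of the series. Those 4 arrays were Ri17 and Col-0 after 4 h, and Ri17 and Col-0 after 1 h, with 1 array for each genotype and time. Col-0 is the wild type, and Ri17 is a Col-0 line in which RNA interference is directed at *JAV1*. All plants were 21 days old and grown on MS medium, and the MeJA dose was 100 µM at both times. The labels describe the treatment as given to seedlings and the tissue as leaves, which were harvested afterwards. The other 6 arrays held untreated leaves and leaves 30 min and 60 min after wounding, in both genotypes. The untreated arrays were not the reference here, and their values are given only beside those after MeJA. Ri17 is the only RNAi line in the series, no expression value of *JAV1* was analysed here, and no array of mock-treated leaves was used. Whether both arrays of a time came from separate cultures is not stated in the labels.

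Jasmonates are lipid-derived hormones that plants make after wounding and insect feeding, and MeJA is a volatile form that cells convert to the active hormone. The active conjugate binds the F-box receptor COI1, repressor proteins are then degraded, and MYC and ERF transcription factors are released to act on their targets. In leaves the pathway is known for raising its own biosynthetic and catabolic genes, for defence proteins and secondary metabolism, and for slowing growth.

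Signal was higher at 4 h than at 1 h for 1029 of 15382 probe sets, which is 6.69% of those tested, and lower for 1220, which is 7.93%. Together 14.6% differed past an adjusted p of 0.05, in limma with genotype as the pair term and the spread estimated over all 10 arrays. Tested probe sets had a Present call on at least 2 of the 10 arrays, and signals were raised to at least 37.7, a floor at the 75th percentile of Absent readings. Each difference is on the log2 scale, at 4 h minus at 1 h, and is the mean of 2 within-genotype differences, given ± its standard error. Over all tested probe sets, 3736 had opposite signs in Ri17 and in Col-0, while 0 of the 2249 called did, which passing on the mean of both differences favours. Of the called, 1687 differed by at least 1 on the log2 scale, 174 were higher by at least 2 and 162 were lower by at least 2, while the median over all tested probe sets was 0.00. The 4 MeJA arrays fitted alone leave 1 residual degree of freedom and called 0 probe sets in limma, with 5581 at an unadjusted p under 0.05, so the calls rest on the spread over the whole series. With 1 MeJA array left out, and the lone array of its time assumed to vary like the rest, 224 to 527 probe sets were called. The spiked hybridization controls, all 18 of which were lower at 4 h (median -0.36), gave another split, in a scaling chosen after the data were seen. These 18 probe sets read each spiked transcript several times. The 27 poly-A controls had a median of -0.16 (-0.36 to 0.13), and the 19 Arabidopsis controls had a median of 0.0. Arrays scaled on the hybridization controls had 2579 probe sets higher and 639 lower. Of those calls 80.1% were higher, against 45.8% as deposited, and the median of all probe sets was 0.31.

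**Figure D1:**
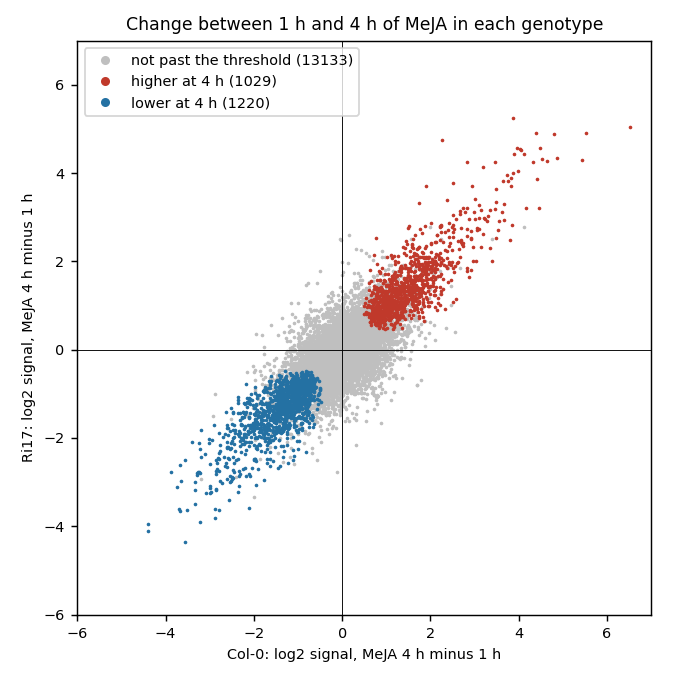
Difference in log2 signal between 4 h and 1 h of MeJA in Ri17 (vertical axis) and in Col-0 (horizontal axis) for 15382 probe sets, 1 point each. Red points are the 1029 called higher at 4 h and blue points the 1220 called lower; all of them lie in the 2 quadrants where both genotypes moved the same way.

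All arrays had been scaled to the same trimmed mean, and the 4 MeJA arrays had median signals of 121.8 to 129.5 and 59.3% to 60.9% of probe sets called Present. Leaf markers were bright on all of them. Of 16 leaf genes, 4 had a kept and named probe set, and their summed signal was 42104 to 49827 at 4 h and 73497 to 81373 at 1 h. Of 20 root markers, 2 were kept, and their summed signal, nearly all of it from the beta-glucosidase *PYK10*, was 2342 to 2499.8 at 4 h and 944.4 to 1212.7 at 1 h. *AG*, the only kept member of 12 flower and pollen markers, was under the floor on all 4 arrays. The summed leaf and root levels thus did not overlap between the times, and their part in the other differences was not tested. Such a gap was common, with 30.5% of tested probe sets in the upward direction and 32.5% in the downward one. *PYK10* is also listed below among the defence outputs of jasmonate, and without MeJA it read 27.3 in Ri17 and 95.3 in Col-0. Whether the root sum reflects root content was therefore not tested. In whole leaves, fewer cells of a type and less RNA per cell cannot be told apart. The leaves of both times were taken 3 h apart in treatment, and hours of MeJA and hour of the day cannot be told apart from these arrays. Clock genes differed strongly. *CCA1*, a morning-phased clock factor, had 118.0 in Ri17 and 197.5 in Col-0 at 4 h, against 884.5 and 1091 at 1 h, and fell by 2.69 ± 0.23 (adjusted p = 0.00179). The evening-phased *TOC1* was at 237.1 in Ri17 and 166.7 in Col-0 at 4 h, against 53.9 and 61.4 at 1 h, a rise of 1.79 ± 0.32. *GI*, a clock and flowering regulator, rose by 1.81 ± 0.29, and the CONSTANS-like gene *COL2* fell by 2.53 ± 0.27. These 4 are the clock members that passed, of 6 kept.

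Among the 15 named genes with the largest rise, 5 encode sugar transferases, and the other 10 have diverse or no described functions. *SUFE2* (AT1G67810), which encodes a plastid activator of the sulfur-donating step in iron-sulfur cluster assembly, had the largest rise among named genes. It read 4328 in Ri17 and 3471 in Col-0 at 4 h, against 131.1 and 35.3 at 1 h, which is at least 5.78 on the log2 scale (adjusted p = 0.00169) because the Col-0 array at 1 h lay under the floor. AT1G54020, described as a myrosinase-associated protein, read 1478 in Ri17 and 2718 in Col-0 at 4 h, against 75.8 and 63.0 at 1 h, and rose by 4.86 ± 0.43 (adjusted p = 0.0019). AT3G62550, described as similar to the tomato protein ER6, read 3831 in Ri17 and 2556 in Col-0 against 161.6 and 164.9 and rose by 4.26 ± 0.37 (adjusted p = 0.0019). In all 3 genes both arrays at 4 h lay far above both at 1 h, which their choice as the largest rises favours. The untreated arrays of Ri17 and Col-0 lay on the side of those at 1 h, with 121.0 and 115.3 for *SUFE2*, 5.0 and 12.4 for AT1G54020 and 69.9 and 149.8 for AT3G62550. *THI2.1*, which encodes an antimicrobial thionin, read 923.7 in Ri17 and 590.9 in Col-0 at 4 h, against 57.9 and 40.6 at 1 h.

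*PORB*, the light-dependent enzyme that makes chlorophyllide, read 5134 in Ri17 and 5783 in Col-0 at 4 h, against 682.3 and 490.5 at 1 h, and rose by 3.24 ± 0.34 (adjusted p = 0.00286). *CCL*, whose transcript is known to be under the circadian clock, read 8709 in Ri17 and 5083 in Col-0 at 4 h, against 666.7 and 657.6 at 1 h, a rise of 3.33 ± 0.43. *SEN1*, known from senescing and darkened leaves and also clock-controlled, read 6967 in Ri17 and 3263 in Col-0 at 4 h, against 649.5 and 407.0 at 1 h, and its rise of 3.21 ± 0.81 had the widest error of the 15 (adjusted p = 0.0395). The DnaJ-like gene AT1G56300 rose by 3.25 ± 0.18, AT1G52200 by 3.84 ± 0.48 and AT3G16330 by at least 3.14. Both values of each were higher at 4 h than at 1 h, which the choice by size favours.

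**Figure D2:**
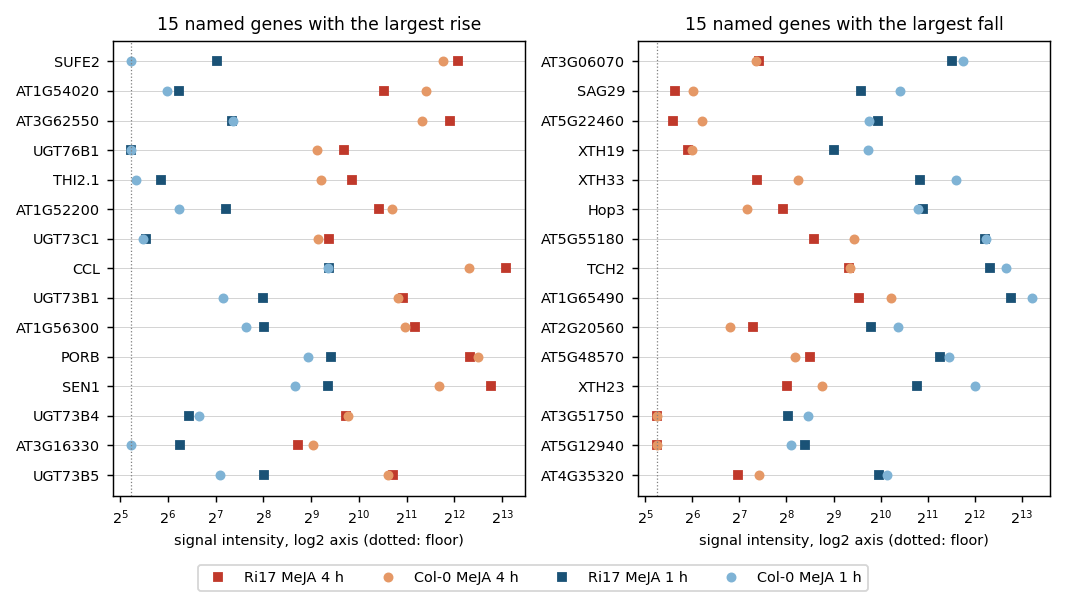
Signal intensity on a log2 axis for the 15 named genes with the largest rise (left panel) and the 15 with the largest fall (right panel) between 1 h and 4 h of MeJA, 1 point per array. Red and orange points (4 h) and dark and light blue points (1 h) do not overlap for any of the 30 genes; points on the dotted line lie at the floor of 37.7.

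The 5 sugar transferases act on small molecules. *UGT76B1*, known to glucosylate isoleucic acid and salicylic acid, read 820.2 in Ri17 and 558.4 in Col-0 at 4 h, against 19.4 and 11.6 at 1 h, and both arrays at 1 h were under the floor. *UGT73B4*, of a family that acts on phenolic and foreign compounds, read 843.8 in Ri17 and 868.6 in Col-0 at 4 h, against 87.1 and 100.8 at 1 h, a rise of 3.19 ± 0.24 (adjusted p = 0.0013). *UGT73B1* rose by 3.29 ± 0.40, with 1939 in Ri17 and 1798 in Col-0 at 4 h against 254.7 and 142.5 at 1 h. *UGT73B5* rose by 3.12 ± 0.30, with 1683 in Ri17 and 1572 in Col-0 at 4 h against 257.0 and 136.6 at 1 h. *UGT73C1*, which can glucosylate cytokinins, rose by 3.74 ± 0.19, with 667.9 in Ri17 and 564.3 in Col-0 at 4 h against 46.9 and 44.8 at 1 h. A probe set that may read more than 1 gene (253268_s_at), described by similarity to a salicylate-induced tobacco glucosyltransferase, rose by 3.38 ± 0.50, with 4574 in Ri17 and 4210.4 in Col-0 at 4 h against 521.6 and 339.3 at 1 h. Its untreated arrays, at 1428 in Ri17 and 1632.5 in Col-0, lay between the 2 times. Over all 100 kept probe sets described as glucosyltransferases, 16 (16%) were higher and 7 (7%) lower, beside 6.69% and 7.93% over all probe sets, and their median was 0.00.

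Glutathione S-transferases couple glutathione to reactive and foreign molecules. They had the largest share of members higher at 4 h of any description group with at least 15 kept probe sets. Of 32, 13 (40.6%) were higher and 3 (9.38%) lower, beside 6.69% and 7.93% over all probe sets, with a median of 0.41. The member with the largest difference (262518_at), described as a member of a run of repeated genes, read 4086 in Ri17 and 3880.2 in Col-0 at 4 h, against 172.1 and 172.8 at 1 h, and rose by 4.53 ± 0.43 (adjusted p = 0.00229). The next (266267_at) rose by 3.76 ± 0.49, with 3748 in Ri17 and 2146 in Col-0 at 4 h against 288.8 and 150.7 at 1 h. Another (262119_s_at), whose probes may read several relatives, rose by 3.68 ± 0.40, but its untreated arrays, at 9254 in Ri17 and 12489.5 in Col-0, were as bright as those at 4 h (9326 in Ri17 and 6555 in Col-0), and those at 1 h (1009.5 and 366.1) were the low ones. The annotation lists no single gene for these 3 probe sets.

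Other enzyme groups varied in their share of members higher at 4 h than at 1 h. Over all probe sets 6.69% were higher and 7.93% lower. Median differences from the untreated arrays at 1 h and 4 h were -0.31 and -0.36 for peroxidases and -0.3 and -0.1 for glutaredoxins and thioredoxins. They were -0.53 and -0.43 for cytochrome P450 and 0.12 and 0.25 for methyltransferases. Peroxidases had 2 of 39 higher (5.13%) and 4 lower (10.3%). Among 56 glutaredoxins and thioredoxins, small proteins that reduce disulfide bonds, 10 (17.9%) were higher and 2 (3.57%) lower. A thioredoxin-like member (250649_at) read 748.5 in Ri17 and 631.3 in Col-0 at 4 h, against 45.2 and 39.6 at 1 h, and rose by 4.02 ± 0.23 (adjusted p = 0.000663), and the glutaredoxin AT5G18600 rose by 2.12 ± 0.42. Its untreated arrays, at 4090.4 in Ri17 and 6161 in Col-0, were again near those at 4 h, 4274 in Ri17 and 2287 in Col-0, while those at 1 h were at 844.9 and 611.1. Of 99 cytochrome P450 probe sets, which cover oxidases of hormone and secondary metabolism, 18 were higher and 11 (11.1%) lower. The largest rise among them (258277_at, similar to CYP71B2) was 4.29 ± 0.38, while the largest fall (257835_at) was a difference at or below -3.56. Methyltransferases had 9 of 72 higher (12.5%) and 2 lower (2.78%). A putative catechol O-methyltransferase (259878_at) led them, with 3292 in Ri17 and 3218 in Col-0 at 4 h, against 161.7 and 110.1 at 1 h, a rise of 4.61 ± 0.21 (adjusted p = 0.000376).

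**Figure D3:**
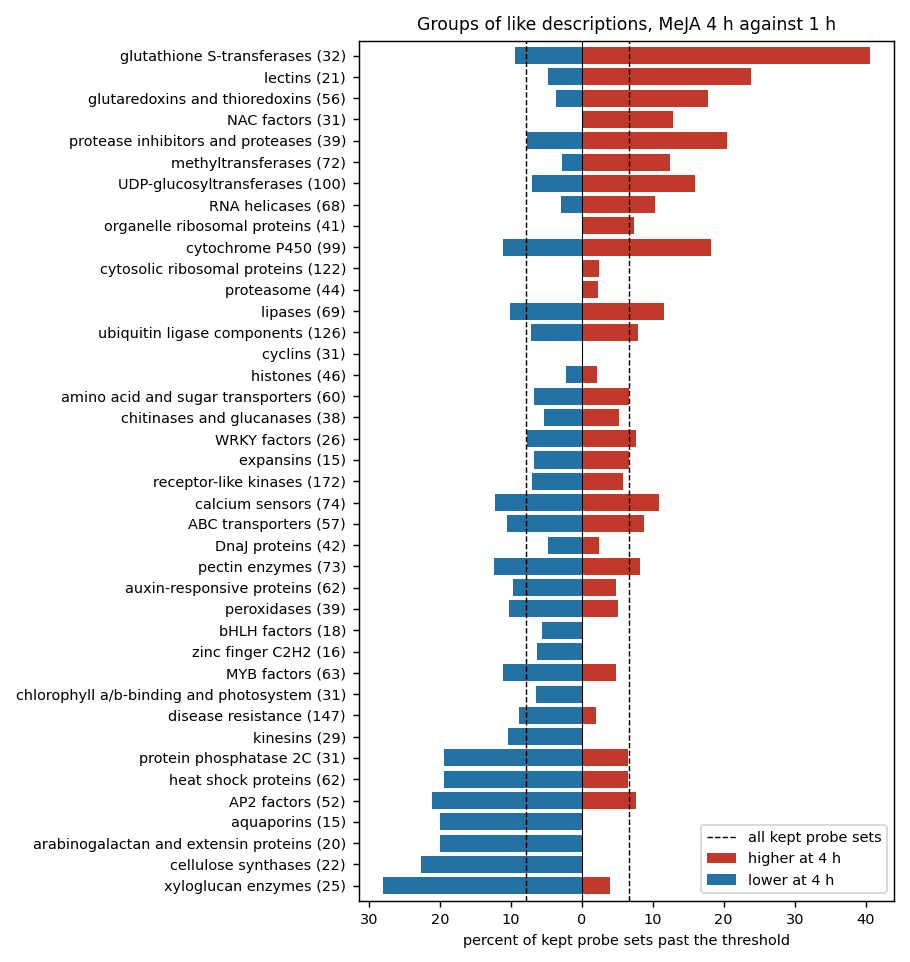
Percent of kept probe sets called higher (red, to the right) and lower (blue, to the left) at 4 h than at 1 h of MeJA, for each group of like descriptions with at least 15 kept probe sets, the number of which is in parentheses. Dashed lines mark 6.69% higher and 7.93% lower, the shares over all kept probe sets; glutathione S-transferases reach 40.6% higher and xyloglucan enzymes 28% lower.

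Sulfur assimilation supplies the cysteine from which glutathione is built. Of its 6 kept genes 3 were higher at 4 h and 0 lower, beside 6.69% and 7.93% over all probe sets. The list median was 0.65. *GSH2*, glutathione synthetase, read 10696 in Ri17 and 8296 in Col-0 at 4 h, against 3899.7 and 2595 at 1 h, and rose by 1.57 ± 0.25 (adjusted p = 0.00923). *GSH1*, which makes its gamma-glutamylcysteine substrate, read 9512 in Ri17 and 8434 in Col-0 at 4 h, against 4111 and 4291 at 1 h, a rise of 1.09 ± 0.19. *SIR*, sulfite reductase, rose by 0.69 ± 0.17, with 9285 in Ri17 and 9437 in Col-0 at 4 h against 5888 and 5733 at 1 h. Of the 6 kept genes, 4 read higher on both arrays at 4 h than on both at 1 h, an order that 30.5% of all probe sets had. In 1 gene both arrays at 4 h read lower, as in 32.5% of all probe sets. *APS3*, ATP sulfurylase at the entry of the pathway, went the other way without passing, with 3567 in Ri17 and 3052 in Col-0 at 4 h against 6318 and 6475 at 1 h (difference -0.95 ± 0.30, adjusted p = 0.0786).

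Tryptophan synthesis also feeds indole glucosinolates and auxin. It had 4 of 5 kept genes higher and 0 lower, beside 6.69% and 7.93% over all probe sets, and a median of 1.05. *TSB2*, a tryptophan synthase beta subunit whose probes may read a close relative, had 5896 in Ri17 and 4778 in Col-0 at 4 h, against 1809 and 1697 at 1 h, and rose by 1.60 ± 0.20 (adjusted p = 0.00492). *TSA1*, the alpha subunit, had 5275.6 in Ri17 and 3157.7 in Col-0 against 1771.2 and 1747.9 and rose by 1.21 ± 0.22. *PAT1*, which adds the phosphoribosyl group, rose by 1.05 ± 0.25. *ASA1*, the committed anthranilate synthase step, had 6775 in Ri17 and 4579.8 in Col-0 at 4 h, against 3096 and 2727 at 1 h, and its difference of 0.94 ± 0.27 missed the threshold (adjusted p = 0.0592). All 5 kept genes were higher on both arrays at 4 h than on both at 1 h, an order that 30.5% of all probe sets had. At 1 h *TSB2* still stood near its untreated level of 1703 in Ri17 and 1708 in Col-0, while *ASA1*, at 3096 and 2727, was above its untreated 918.8 in Ri17 and 1295 in Col-0. In ascorbate and vitamin E synthesis, *GLDH* and *GALDH*, the last enzymes of ascorbate synthesis, rose by 0.80 ± 0.18 and 0.78 ± 0.19. *VTC4*, an earlier phosphatase of that route, fell by 1.05 ± 0.25, so 2 of the 5 kept members were higher and 1 lower.

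Within the jasmonate pathway, 1 of 5 kept synthesis genes was called, and it was lower at 4 h. *OPCL1*, which activates the precursor for beta-oxidation, read 2660.5 in Ri17 and 3055 in Col-0 at 4 h, against 7772 and 9063 at 1 h, and fell by 1.56 ± 0.21 (adjusted p = 0.00584), with 762.9 in Ri17 and 650.1 in Col-0 on the untreated arrays. *OPR3*, which reduces the cyclopentenone precursor, read 10760.1 in Ri17 and 11452 in Col-0 at 4 h, against 22591 and 23639 at 1 h, a difference of -1.06 ± 0.31 that did not pass (adjusted p = 0.0632). *AOS*, which makes the allene oxide, was at 17473 in Ri17 and 18526 in Col-0 at 4 h, against 16966 and 16767 at 1 h, and *LOX2*, the lipoxygenase that starts the pathway, was at 26523 in Ri17 and 32206 in Col-0 against 23898 and 24538; neither passed. The median of the 5 was 0.06.

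The enzymes that inactivate the hormone split by member. *JOX3*, an oxygenase that hydroxylates jasmonic acid, read 2195 in Ri17 and 1930.2 in Col-0 at 4 h, against 325.8 and 231.1 at 1 h, and rose by 2.91 ± 0.67 (adjusted p = 0.03). *JOX2* read 11579 in Ri17 and 11183 in Col-0 at 4 h and 11903 and 12389.7 at 1 h, and *JOX4* read 4923 in Ri17 and 6183 in Col-0 at 4 h and 10506 and 10821 at 1 h, and neither passed. *JOX2* and *JOX4* were therefore already bright at 1 h, *JOX4* against untreated readings of 8.9 in Ri17 and 42.8 in Col-0, whereas *JOX3* was dim at 1 h. *JMT*, which makes MeJA, did not pass (268.9 in Ri17 and 444.3 in Col-0 at 4 h, 351.0 and 280.0 at 1 h).

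Among the regulators, *MYC4*, a bHLH factor of the jasmonate response, read 237.6 in Ri17 and 226.4 in Col-0 at 4 h, against 641.9 and 575.5 at 1 h, and fell by 1.39 ± 0.30 (adjusted p = 0.0253). Its untreated arrays were brighter than both times, at 1595 in Ri17 and 2673 in Col-0. *MYC3* and the receptor gene *COI1* did not pass, at 0.34 ± 0.36 and -0.32 ± 0.21. Of 7 kept ERF factors, 2 rose and 1 fell, beside 6.69% and 7.93% over all probe sets, with a median of 0.33. *ERF1B*, an activator of defensin genes in the joint jasmonate and ethylene response, read 107.3 in Ri17 and 151.0 in Col-0 at 4 h, against 65.7 and 50.8 at 1 h, and rose by 1.14 ± 0.30, and *ERF6*, another activator, read 264.0 in Ri17 and 303.7 in Col-0 at 4 h against 78.5 and 168.7 at 1 h. *ERF4*, a repressor of the same kind of target, read 1023 in Ri17 and 715.9 in Col-0 at 4 h, against 1430.3 and 1749.9 at 1 h, and fell by 0.89 ± 0.23 (adjusted p = 0.0446).

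Some defence outputs were higher at 4 h than at 1 h. Of 10 kept members, 3 rose and 0 fell, beside 6.69% and 7.93% over all probe sets, and the list median was 0.74. Beside *THI2.1*, which rose by 3.93 ± 0.28, *PR4*, a hevein-like chitin-binding protein, read 2645 in Ri17 and 1146 in Col-0 at 4 h, against 318.8 and 200.1 at 1 h, and rose by 2.79 ± 0.48 (adjusted p = 0.0123). The defensin gene *PDF1.2A* read 450.9 in Ri17 and 186.0 in Col-0 at 4 h, against 108.1 and 45.3 at 1 h, a rise of 2.05 ± 0.39 (adjusted p = 0.0159). For *PR4* the untreated arrays, at 1918 in Ri17 and 3273 in Col-0, were brighter than both at 1 h, and for *PDF1.2A* they were at 374.1 in Ri17 and 92.1 in Col-0, so in each genotype both genes were dimmest at 1 h. *PDF1.2B*, whose probes may also read its relatives, had 211.3 in Ri17 and 32.5 in Col-0 at 4 h and did not pass. *VSP1*, a vegetative storage protein whose probes may read its relative, did not pass either, at 25153 in Ri17 and 27657 in Col-0 at 4 h and 21955 and 24064 at 1 h, where both times were far above the untreated 1039 in Ri17 and 318.6 in Col-0.

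Other defence proteins appeared among the description groups. Lectins, sugar-binding proteins, had 5 of 21 higher (23.8%) and 1 lower (4.76%), beside 6.69% and 7.93% over all probe sets. The legume-type lectin AT3G16530 read 11671 in Ri17 and 8902 in Col-0 at 4 h, against 2887 and 843.2 at 1 h, and rose by 2.71 ± 0.39, and *JAL34*, a jacalin-like lectin, read 6854 in Ri17 and 7849.5 in Col-0 against 1758 and 1286 and rose by 2.29 ± 0.35. Proteases and their inhibitors had 8 of 39 higher (20.5%) and 3 lower (7.69%). *LCR69*, described as a protease inhibitor of the gamma-thionin type, read 3285 in Ri17 and 2778 in Col-0 at 4 h, against 492.5 and 394.6 at 1 h, a rise of 2.78 ± 0.28 (adjusted p = 0.00247). A cysteine proteinase similar to RD21A (254915_s_at) rose by 3.49 ± 0.32. Lipases had 8 of 69 higher (11.6%) and 7 lower (10.1%), close to all probe sets in the lower direction, and a lipase-like probe set (250199_at) led with a rise of 2.95 ± 0.20. Polygalacturonase inhibiting protein 1 (250670_at), which blocks fungal pectinases, read 5183 in Ri17 and 4708 in Col-0 at 4 h, against 975.2 and 715.8 at 1 h, and rose by 2.56 ± 0.34.

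Auxin genes went both ways. Of 62 probe sets described as auxin-responsive, 3 were higher (4.84%) and 6 lower (9.68%), near the 6.69% and 7.93% over all probe sets. A putative auxin-regulated protein (267461_at) had the largest rise, 4.56 ± 0.53, with 4906 in Ri17 and 2174 in Col-0 at 4 h against 128.3 and 150.0 at 1 h, and AT1G60730, described as auxin-induced, rose by 2.03 ± 0.32. *GH3.3*, an amido synthetase that ties auxin to amino acids, read 1134 in Ri17 and 782.7 in Col-0 at 4 h, against 142.7 and 90.4 at 1 h, and rose by 3.05 ± 0.22 (adjusted p = 0.0013), with 1.6 in Ri17 and 4.0 in Col-0 on the untreated arrays. *GH3.5*, of the same family, was higher by at least 1.56, with 149.8 in Ri17 and 127.1 in Col-0 at 4 h against 58.1 and 36.3 at 1 h. Its untreated arrays, at 95.7 in Ri17 and 114.4 in Col-0, lay above those at 1 h. *IAA3*, an Aux/IAA repressor, read 129.5 in Ri17 and 98.2 in Col-0 at 4 h, against 493.6 and 587.8 at 1 h, and fell by 2.26 ± 0.22 (adjusted p = 0.00235). In the list of 10 kept auxin genes, 2 rose and 1 fell. In the gibberellin and brassinosteroid list of 7, *GID1A*, a gibberellin receptor, rose by 1.66 ± 0.29, with 1217 in Ri17 and 1459 in Col-0 at 4 h against 517.5 and 342.2 at 1 h, while *RGA* and *GAI*, DELLA proteins that the receptor marks for degradation, fell by 0.89 ± 0.22 and 0.86 ± 0.21. *ARR6*, a negative regulator of cytokinin signalling, read 127.2 in Ri17 and 185.9 in Col-0 at 4 h, against 706.6 and 602.5 at 1 h, and fell by 2.09 ± 0.30, the only one called among 3 kept cytokinin genes.

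The 15 named genes with the largest fall held 3 xyloglucan enzymes, *XTH19*, *XTH33* and *XTH23*, and several genes of no described function, among them the first. AT3G06070, of no described function, read 170.1 in Ri17 and 164.3 in Col-0 at 4 h, against 2924 and 3439 at 1 h, and fell by 4.25 ± 0.28 (adjusted p = 0.00115). *SAG29*, which encodes a sugar transporter known from senescing leaves, read 49.8 in Ri17 and 64.5 in Col-0 at 4 h, against 770.7 and 1362 at 1 h, and fell by 4.18 ± 0.69 (adjusted p = 0.0107). AT5G22460 read 48.3 in Ri17 and 73.5 in Col-0 against 989.6 and 861.8 and fell by 3.95 ± 0.30. In Ri17 and Col-0 the untreated arrays read 223.6 and 444.1 for AT3G06070, 90.9 and 60.6 for *SAG29* and 69.3 and 42.3 for AT5G22460, so these 3 genes were bright at 1 h alone of the 3 times. *SAG29* was the only one lower of 6 kept senescence genes, of which *SEN1*, *WRKY6* and the chlorophyllase *CLH2*, with a rise of 1.44 ± 0.25, were higher. Untreated, *WRKY6* read 133.8 in Ri17 and 161.4 in Col-0, and *CLH2* read 136.1 and 119.6. Both were dimmer than that at 1 h, at 42.7 and 47.6 for *WRKY6* and 59.8 and 78.3 for *CLH2*, while *SEN1* was brighter at 1 h than untreated. AT1G65490 read 741.0 in Ri17 and 1198 in Col-0 at 4 h, against 6993 and 9495 at 1 h, and fell by 3.11 ± 0.23, and its untreated arrays were brighter still, at 12214 in Ri17 and 13475 in Col-0. AT4G35320 fell by 2.87 ± 0.25. AT3G51750 was under the floor on both arrays at 4 h, against 260.8 and 351.4 at 1 h, a difference at or below -3.01. AT5G12940, described as similar to the DRT100 precursor, was under it too, against 336.1 and 271.8 at 1 h.

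Xyloglucan enzymes and expansins loosen the wall of growing cells, and of 21 kept genes in a list of both, 7 were lower and 0 higher, with a median of -0.83. By description, 7 of 25 xyloglucan probe sets were lower (28%) and 1 higher (4%), beside 7.93% and 6.69% over all probe sets. Expansins had 1 of 15 in each direction (6.67%). *EXPA9* was the expansin that rose and *EXPA16* the one that fell. *XTH33* read 164.6 in Ri17 and 304.6 in Col-0 at 4 h, against 1844 and 3094 at 1 h, and fell by 3.42 ± 0.46 (adjusted p = 0.00559). *XTH23* read 258.4 in Ri17 and 434.8 in Col-0 at 4 h, against 1759 and 4144 at 1 h, and fell by 3.01 ± 0.46, and *XTH18* read 348.4 in Ri17 and 773.3 in Col-0 against 2787 and 4499, and fell by 2.77 ± 0.46. Without MeJA the arrays of Ri17 and Col-0 read 43.8 and 29.9 for *XTH33*, 98.3 and 115.6 for *XTH23* and 49.8 and 5.2 for *XTH18*, so all 3 were brightest at 1 h and still above the untreated arrays at 4 h. *XTH19*, with 59.9 in Ri17 and 64.0 in Col-0 at 4 h and 513.0 and 855.4 at 1 h, was instead brightest on the untreated arrays, at 591.6 in Ri17 and 2194 in Col-0. All 4 genes were brighter in Col-0 than in Ri17 at 1 h and at 4 h, a gap that has no repeat and was not tested.

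Cellulose synthases, which spin the wall's main polymer, had 5 of 22 lower (22.7%) and 0 higher, and a catalytic subunit (247251_at) read 1738 in Ri17 and 2246 in Col-0 at 4 h, against 5820.1 and 5648 at 1 h, and fell by 1.54 ± 0.19 (adjusted p = 0.00436). Arabinogalactan and extensin proteins, glycoproteins of the wall, had 4 of 20 lower (20%) and 0 higher. The shares over all probe sets were 7.93% lower and 6.69% higher. A probable arabinogalactan protein (253050_at) read 303.5 in Ri17 and 612.6 in Col-0 at 4 h, against 2582 and 3079 at 1 h, and fell by 2.71 ± 0.40. AT5G55180, described as similar to beta-1,3-glucanase, read 382.0 in Ri17 and 690.1 in Col-0 at 4 h, against 4772 and 4813 at 1 h, and fell by 3.22 ± 0.40 (adjusted p = 0.0045). Its group of chitinases and glucanases had 2 of 38 in each direction (5.26%), and the putative beta-1,3-glucanase AT3G04010 rose by 1.93 ± 0.21. Pectin enzymes were mixed, with 6 of 73 higher (8.22%) and 9 lower (12.3%). Aquaporins, water channels, had 3 of 15 lower (20%) and 0 higher. One of them, described as plasma membrane intrinsic protein 1c (259431_at), read 1652 in Ri17 and 2087 in Col-0 at 4 h, against 5194 and 5280.4 at 1 h (adjusted p = 0.0218).

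Some touch genes were lower at 4 h, and calcium genes went both ways. *TCH2*, a touch-induced calmodulin-like protein, read 645.2 in Ri17 and 648.4 in Col-0 at 4 h, against 5113 and 6513 at 1 h, and fell by 3.16 ± 0.27 (adjusted p = 0.0019). *VQ12*, of a family that binds WRKY factors, read 229.2 in Ri17 and 244.4 in Col-0 at 4 h, against 862.5 and 577.2 at 1 h, and fell by 1.58 ± 0.24, and *WRKY6* rose by 1.11 ± 0.24. *TCH4*, a touch-induced xyloglucan enzyme, read 7961 in Ri17 and 8339 in Col-0 at 4 h, against 13411 and 18236 at 1 h, and its difference of -0.94 ± 0.34 did not pass (adjusted p = 0.118). Of 14 kept early wound and touch genes, 2 were lower and 1 higher. Calcium sensors and pumps had 8 of 74 higher (10.8%) and 9 lower (12.2%), beside 6.69% and 7.93% over all probe sets. A probe set similar to a calmodulin-stimulated calcium pump (251176_at) was the largest late change there, with 1123 in Ri17 and 871.9 in Col-0 at 4 h, against 56.2 and 9.3 at 1 h, which is higher by at least 4.43, and the calmodulin-binding protein gene AT4G31000 fell by 2.59 ± 0.27.

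Several chaperone genes were bright at 1 h and lower at 4 h. Of 10 kept chaperone genes, 5 were lower and 0 higher, beside 7.93% and 6.69% over all probe sets. Their median was -1.25. *HSP70-4* read 2946 in Ri17 and 2026 in Col-0 at 4 h, against 15109.7 and 17311 at 1 h, and fell by 2.73 ± 0.57 (adjusted p = 0.0212). *HSP101*, a disaggregase, read 155.0 in Ri17 and 151.1 in Col-0 at 4 h, against 1040.1 and 1100.2 at 1 h, and fell by 2.81 ± 0.49. *HSC70-3* fell by 1.63 ± 0.23, while *HSP17.6A*, a small heat shock protein, read 65.8 in Ri17 and 154.0 in Col-0 against 400.3 and 328.8 and did not pass (adjusted p = 0.0607). Among the leading falls, *Hop3*, a co-chaperone that links the large chaperones, read 244.1 in Ri17 and 142.8 in Col-0 at 4 h, against 1928 and 1784 at 1 h, and fell by 3.31 ± 0.40. AT5G48570, a peptidylprolyl isomerase, read 363.2 in Ri17 and 290.7 in Col-0 against 2457 and 2808, and fell by 3.01 ± 0.43, and the heat shock protein gene AT2G20560 fell by 3.03 ± 0.46. Over 62 probe sets described as heat shock proteins, 12 were lower (19.4%) and 4 higher (6.45%), the latter near the share over all probe sets. The untreated arrays of Ri17 and Col-0 read 2589 and 736.9 for *HSP70-4*, 264.7 and 120.1 for *HSP101* and 294.8 and 121.3 for AT5G48570, levels that lay nearer to those at 4 h than to those at 1 h. *HSC70-3* differed from these, with 7161 in Ri17 and 4307 in Col-0 at 4 h, 17034 and 17350.1 at 1 h, and untreated arrays close to those at 1 h, at 15682 in Ri17 and 14004 in Col-0.

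Genes of abscisic acid and cold, hormone and stress signals of water shortage, had 5 of 10 lower and 1 higher. The shares over all probe sets were 7.93% lower and 6.69% higher. The list median was -1.48. *RD29B*, a marker of abscisic acid, read 90.7 in Ri17 and 77.7 in Col-0 at 4 h, against 389.8 and 350.8 at 1 h, and fell by 2.14 ± 0.17 (adjusted p = 0.00144). The dehydrin gene *RAB18* read 517.4 in Ri17 and 357.6 in Col-0 at 4 h, against 1408 and 1781 at 1 h, and fell by 1.88 ± 0.29, and *COR47*, another dehydrin, read 1202 in Ri17 and 1196 in Col-0 against 3967 and 4886, and fell by 1.88 ± 0.22. *ABF3*, a bZIP factor of the same hormone, read 3.5 in Ri17 and 47.2 in Col-0 at 4 h, against 140.3 and 149.8 at 1 h, a difference at or below -1.78. *COR15B*, a cold-regulated chloroplast protein, was the member that rose, by 1.60 ± 0.32. Without MeJA *RD29B* was under the floor on both arrays and *RAB18* read 171.2 in Ri17 and 148.9 in Col-0, below both MeJA times, while *ABF3* read 525.1 in Ri17 and 798.9 in Col-0, above both. Protein phosphatases 2C, some of which restrain this hormone's signal, had 6 of 31 lower (19.4%) and 2 higher (6.45%).

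**Figure D4:**
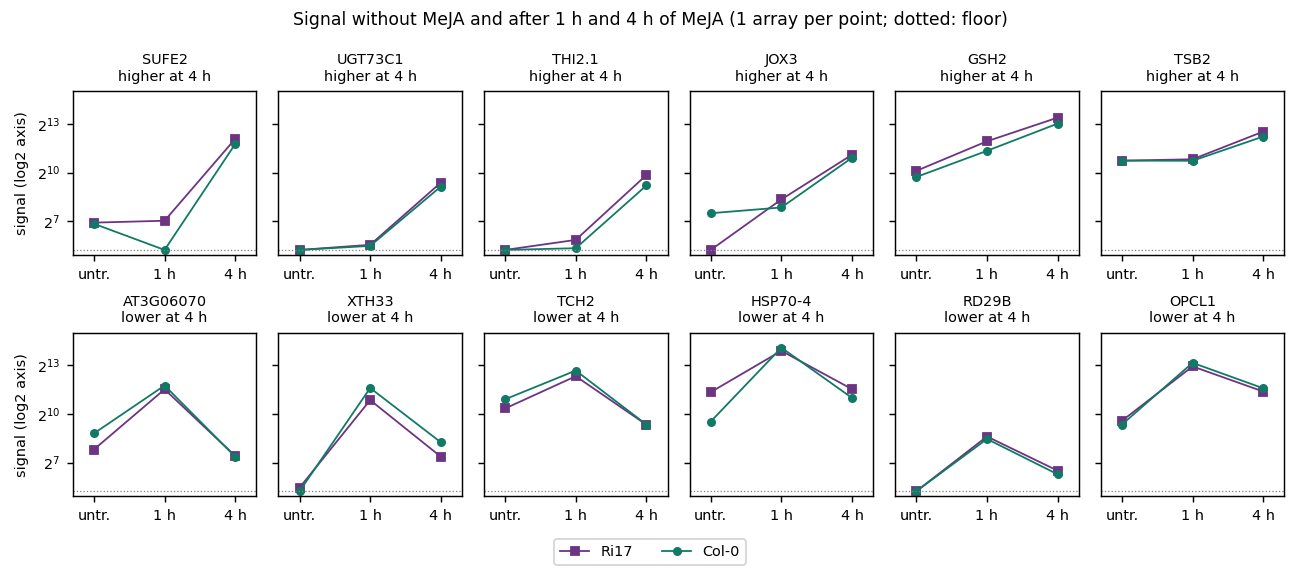
Signal on a log2 axis in Ri17 (squares) and Col-0 (circles) without MeJA and after 1 h and 4 h of MeJA, 1 array per point, for 6 genes called higher at 4 h (upper row) and 6 called lower (lower row). *TSB2* was as bright at 1 h as without MeJA in both genotypes, *JOX3* and *GSH2* stood between their other times at 1 h, and all 6 genes of the lower row peaked at 1 h in both genotypes.

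Transcription factor groups varied in their shares, beside 6.69% higher and 7.93% lower over all probe sets. AP2 factors, a family that holds ERF and cold-response regulators, had 11 of 52 lower (21.2%) and 4 higher (7.69%). A member similar to tomato Pti6 (254235_at) read 64.8 in Ri17 and 74.7 in Col-0 at 4 h, against 360.7 and 443.9 at 1 h, and fell by 2.52 ± 0.36 (adjusted p = 0.00684). Another, described as similar to an ethylene-responsive element binding protein (246932_at), read 289.0 in Ri17 and 211.6 in Col-0 at 4 h, against 1595 and 1264 at 1 h, and fell by 2.52 ± 0.56. NAC factors, many of which act in stress and senescence, had 4 of 31 higher (12.9%) and 0 lower, among them 258059_at with a rise of 1.86 ± 0.50. MYB factors had 3 of 63 higher (4.76%) and 7 lower (11.1%), and WRKY factors had 2 of 26 in each direction (7.69%). These counts varied with the processing. Apart from fits of the 4 MeJA arrays alone or with 1 of them left out, 1 to 7 NAC and 0 to 8 WRKY probe sets were higher. In those settings 4 to 11 AP2 probe sets were lower. Scaled on the hybridization controls, group medians lay above 0 for AP2 factors (0.01, against -0.11 as deposited), protein phosphatases 2C (0.09 against -0.21), arabinogalactan and extensin proteins (0.09 against -0.18) and MYB factors (0.14 against -0.08), all below the 0.31 of all probe sets.

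Ribosomal proteins of the cytosol differed by little each, nearly all in the same direction. Of 122 probe sets 3 passed as higher (2.46%) and 0 as lower, a count that was 0 with the 4 MeJA arrays alone or 1 of them left out and 1 to 61 under the other settings. Of the same probe sets 105 (86.1%) read higher on both arrays at 4 h than on both at 1 h, an order that 30.5% of all probe sets had. Their median difference was 0.44, with 0.33 in Ri17 and 0.52 in Col-0, and their range was -0.02 to 1.11, with 114 above 0 in Ri17 and 119 in Col-0. A probe set for 60S protein L10 (256385_at) read 15474 in Ri17 and 14942 in Col-0 at 4 h, against 7514 and 6647 at 1 h, and rose by 1.11 ± 0.17 (adjusted p = 0.00798), and the gene for 60S protein L30, AT2G44860, rose by 0.92 ± 0.18. Proteasome subunits, which degrade tagged proteins, had a median of 0.25, with 31 of 44 (70.5%) in that order and 1 called, 0 to 16 under the other settings. Ribosomal proteins of the organelles had a median of 0.02 over 41, with 3 called higher and 15 (36.6%) in that order. With arrays scaled on the hybridization controls, the medians were 0.79 for cytosolic ribosomal proteins, 0.61 for the proteasome and 0.38 for organelle ribosomal proteins, beside 0.31 for all probe sets.

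The direction of photosynthesis genes depended on the scaling. Of 31 probe sets described as chlorophyll a/b-binding or photosystem proteins, 24 (77.4%) read lower on both arrays at 4 h than on both at 1 h, an order that 32.5% of all probe sets had, while 2 (6.45%) passed as lower. Their median was -0.25, which lay at -0.14 after quantile normalisation and turned to 0.11, below the 0.31 of all probe sets, with scaling on the hybridization controls. The count in that order was 19 after quantile normalisation and 14 after median centring, and with scaling on the hybridization controls 8 read lower and 13 higher. The probe set with the largest fall (259970_at), a putative chlorophyll-binding protein, read 243.7 in Ri17 and 261.3 in Col-0 at 4 h, against 652.5 and 645.4 at 1 h, and fell by 1.36 ± 0.19 (adjusted p = 0.00696). In carbon fixation, *SBPASE*, sedoheptulose-bisphosphatase of the Calvin cycle, read 3823 in Ri17 and 5609 in Col-0 at 4 h, against 11216 and 12534 at 1 h, and fell by 1.36 ± 0.26 (adjusted p = 0.0165). *PRK*, phosphoribulokinase, did not pass, at 6232 in Ri17 and 8522 in Col-0 against 11871 and 13363. In chlorophyll synthesis *PORA*, the relative of *PORB*, rose by 1.63 ± 0.26, with 160.5 in Ri17 and 162.5 in Col-0 at 4 h against 52.1 and 52.3 at 1 h. *CA2*, a carbonic anhydrase in the leaf list, read 4559.6 in Ri17 and 4931 in Col-0 at 4 h, against 15977 and 17238 at 1 h, and fell by 1.81 ± 0.27. Of 9 reference genes 0 passed, with a median of -0.31 as deposited and 0.04 after scaling on the hybridization controls. As deposited, 5 of them read lower on both arrays at 4 h than on both at 1 h, and 1 read higher. The actin *ACT8* came nearest to the threshold, with a difference of -0.61 ± 0.16 (adjusted p = 0.0501).

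**Figure D5:**
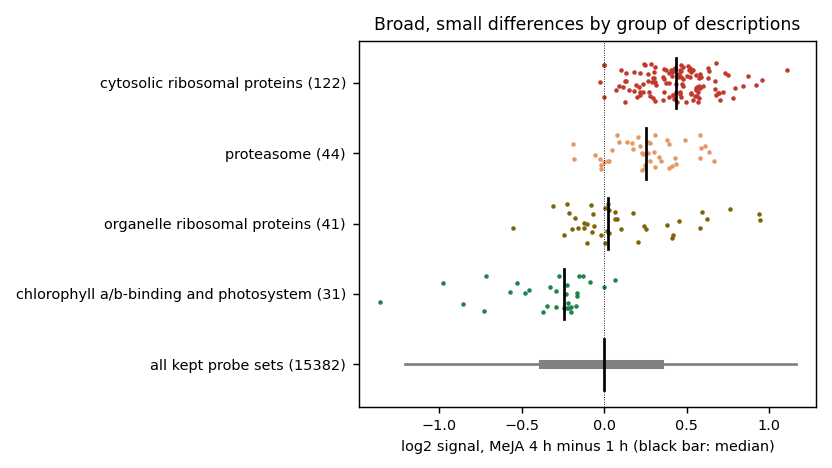
Difference in log2 signal between 4 h and 1 h of MeJA for each probe set (points) of 4 description groups, with black bars at the medians of 0.44, 0.25, 0.02 and -0.25. The grey bar spans the 25th to 75th percentile of all 15382 kept probe sets and the thin line the 5th to 95th percentile, around a median of 0.00.

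Several functions had few or no calls between the times. Of 6 salicylate defence genes 0 passed in limma, with 1 at an unadjusted p under 0.05. Likewise 0 of 5 genes of aliphatic glucosinolate synthesis and 0 of 5 of lignin synthesis passed, with 0 and 2 at an unadjusted p under 0.05. In the salicylate list *PR2* and *PR5* had no Present call on the 4 MeJA arrays. *PR2* read 28.7 in Ri17 and 47.7 in Col-0 at 4 h and 6.9 and 43.4 at 1 h, with 7831 and 10560 untreated. The median difference of that list from the untreated arrays was -1.96 at 1 h and -2.12 at 4 h, though *GRX480*, a glutaredoxin gene, read higher at 4 h than untreated. In the flavonoid list *F3H*, flavanone 3-hydroxylase, read 125.4 in Ri17 and 96.0 in Col-0 at 4 h, against 544.2 and 907.7 at 1 h, and fell by 2.68 ± 0.40, while the other 11 did not pass, 3 of them under the floor on all 4 arrays. *F3H* had been far brighter without MeJA, at 4763 in Ri17 and 2884 in Col-0. *MYB34*, a regulator of indole glucosinolate synthesis, fell by 0.98 ± 0.24. Of 31 cyclin probe sets 0 passed in either direction, and histones had 1 of 46 in each direction (2.17%). *MCM5*, a replication licensing helicase subunit, read 160.8 in Ri17 and 147.4 in Col-0 at 4 h, against 59.4 and 59.4 at 1 h, and rose by 1.37 ± 0.23. Disease resistance proteins had 3 of 147 higher (2.04%) and 13 lower (8.84%), and receptor-like kinases had 10 of 172 higher (5.81%) and 12 lower (6.98%), shares at or under those of all probe sets but for the 8.84%.

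Whether the change with time differed between the genotypes could not be tested. Counted on single arrays, 2224 probe sets changed by at least 1 between 1 h and 4 h in Ri17 and 2299 in Col-0, with a Present call on the brighter array. In both genotypes together, 722 probe sets were higher by at least 1 and 783 lower by at least 1, while 1 moved in opposite directions by that much. Over all 15382 probe sets the differences of Ri17 and Col-0 had a Pearson correlation of 0.82, a description across probe sets that share the same 4 arrays and are not independent. *PR4* and *PDF1.2A* were brighter in Ri17 than in Col-0 at 4 h and at 1 h. Without MeJA *PDF1.2A* was also brighter in Ri17, but *PR4* was brighter in Col-0. AT1G54020 and *JAL34* were brighter in Col-0 at 4 h. With 1 array per genotype and time, such gaps between Ri17 and Col-0 have no repeat and were not tested.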

How the data were processed

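Affymetrix ATH1 arrays measured leaf RNA in 10 samples. The deposited signal intensity and detection call of each probe set came from GCOS software, per the submitters' processing notes, and the trimmed mean signal was 500.1 on each array, per the deposited values. The probe-level software settings are not given in the sources used here, so only the deposited summaries were analysed, and the small number of arrays limits the precision. Control probe sets (64 of 22810) and probe sets with fewer than 2 Present calls were left out, which kept 15382. Signals under the floor of 37.7 were raised to it, and log2 values of the deposited intensity were fitted in limma 3.58.1 (R 4.3.3) with condition and genotype, two-sided, with Benjamini-Hochberg adjustment over all kept probe sets and a threshold of 0.05. The fit had 4 residual and 3.17 prior degrees of freedom. Since separate cultures are not stated, p-values measure only the spread between these arrays, and that spread also holds any difference between the genotypes that varies with condition.

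Gene names came from the platform annotation, with 13513 probe sets listing 1 gene, 503 several and 8730 none, and from symbols in the deposited descriptions for 108 more. Of 590 genes in 29 lists, 208 had a named probe set, so a list count covers the named members alone. A list or description group is given by its counts and median, with no set test. Members and lists were chosen with earlier results of these data known. Named were the 15 largest rises and 15 largest falls that passed with the same sign in both genotypes and Present calls on both arrays of the brighter time, up to 4 members of a list and up to 3 of a description group by size. Other named genes, and the 12 genes plotted over 3 times, were chosen after their values were seen. A difference is given as at least a size, with no error, where an array of the dimmer time lay under the floor. No sequence or coordinate was used here.

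The fit was tested on simulated data. Alternatives were other sets of arrays, a fit with no genotype term, quantile normalisation, median centring, other floors and filters, an intensity trend, robust variance shrinkage, each array left out in turn, and, chosen after seeing the data, arrays scaled on the spiked hybridization controls. Tables used pandas 2.3.3 and numpy 2.4.6 in Python 3.11.15, and figures matplotlib 3.10.9.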

Additional observations from a re-analysis of the deposited data

Results flagged for a closer look

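With a Present call required on the brighter array of each genotype, 1 probe set moved by more than 1 on the log2 scale in opposite directions. This probe set (249633_at) is described as sucrose synthase-like. It read 43.2 at 4 h against 95.4 at 1 h in Ri17, and 102.7 at 4 h against 47.5 at 1 h in Col-0, so the change in Ri17 minus that in Col-0 was -2.26. It was chosen after its values were seen, and with 1 array for each genotype and time the difference between the genotypes was not tested.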

How the results depend on the processing

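The calls depended on which arrays gave the spread, and the split by direction on the scaling. Of the 2249 probe sets called (1029 higher, 1220 lower), the 4 MeJA arrays alone called 0, with 0 list members and 0 of the 30 leading genes. The MeJA and untreated arrays alone called 1419 (625 higher, 794 lower). With no detection filter 1198 were called (556 higher, 642 lower) and 30 list members in place of 61. Scaling on the hybridization controls called 2579 higher and 639 lower. Leaving out each array in turn gave 224 to 2516 calls, 115 to 1149 of them higher and 109 to 1367 lower, 14 to 67 list members and 17 to 30 of the leading genes. The calls numbered 224 without Col-0 at 1 h, 461 without Col-0 at 4 h, 527 without Ri17 at 1 h and 330 without Ri17 at 4 h, fits that hold 1 array fewer of the contrast. Without 1 MeJA array the glutathione S-transferases called higher numbered 3 to 7 of 32, the tryptophan synthesis genes 0 to 1 of 5, the sulfur and glutathione genes 0 to 1 of 6, and the lower members 2 to 5 of 21 xyloglucan enzymes and expansins and 0 to 3 of 10 heat shock genes. The other settings gave 2083 to 2563 calls, and the 30 leading genes, chosen for size and for the same sign in both genotypes, kept their sign in every setting run. Of 242 named genes and probe sets, 160 passed, and 0 changed sign with their call under any setting. All 160 were lost with the 4 MeJA arrays alone, 80 to 113 with 1 MeJA array left out, and 41 with the MeJA and untreated arrays alone. Without a filter 66 of the 160 no longer passed, with the floor doubled 23 did not, and with scaling on the hybridization controls 9 did not. The cause of these losses was not tested.

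Signals near the floor set a limit, since 112 of the higher and 77 of the lower probe sets had an array of the dimmer time under it and their size is a bound. Hour of the day, array scaling and hours of MeJA cannot be told apart with 1 array per genotype and time.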

Other observations

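Some genes that did not pass between the MeJA times read far lower there than on the untreated arrays. *CHS*, chalcone synthase at the entry of the pathway, read 149.4 in Ri17 and 185.0 in Col-0 at 4 h and 99.7 and 162.8 at 1 h, while the untreated arrays read 7279 in Ri17 and 1061 in Col-0. *UGT78D2*, which adds glucose to flavonoids, read 331.4 in Ri17 and 365.5 in Col-0 at 4 h and 489.9 and 523.5 at 1 h, with 2568 in Ri17 and 2972 in Col-0 untreated. *WRKY53*, a senescence regulator, read 59.7 in Ri17 and 40.8 in Col-0 at 4 h and 46.5 and 31.3 at 1 h, with 545.0 in Ri17 and 920.8 in Col-0 untreated. In the same flavonoid list *TTG1*, a regulator, read 962.8 in Ri17 and 825.8 in Col-0 at 4 h and 986.6 and 1000.0 at 1 h, close to its untreated 900.2 in Ri17 and 1095 in Col-0. No test of either MeJA time against the untreated arrays is reported here.

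RNA helicases, which unwind RNA in ribosome assembly, splicing and translation, had 7 of 68 probe sets higher at 4 h (10.3%) and 2 lower (2.94%). The shares over all probe sets were 6.69% higher and 7.93% lower. AT3G58570, of the DEAD-box kind, read 821.2 in Ri17 and 808.6 in Col-0 at 4 h, against 219.2 and 211.1 at 1 h, and rose by 1.92 ± 0.23 (adjusted p = 0.00407), and AT3G18600 rose by 1.42 ± 0.32. *TMT1*, a sugar transporter of the vacuole membrane, read 1139 in Ri17 and 1375 in Col-0 at 4 h, against 315.9 and 193.1 at 1 h, and rose by 2.34 ± 0.33 (adjusted p = 0.00629). *PYK10*, a beta-glucosidase of endoplasmic reticulum bodies known mainly from roots, read 2458 in Ri17 and 2275 in Col-0 at 4 h and 1158 and 901.9 at 1 h, with 27.3 in Ri17 and 95.3 in Col-0 untreated, and did not pass (adjusted p = 0.328).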
